A study of Mus musculus with 7 samples.

Results

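Expression was described for 10 genes that make, carry and break down the catecholamines dopamine and noradrenaline or supply tetrahydrobiopterin, the cofactor of the first step. They were taken as all probe sets annotated to Th, Ddc, Dbh, Gch1, Pts, Spr, Qdpr, Slc6a3, Slc18a1 and Maoa, which gave 12 probe sets of the 22626 tested, or 10 of 12393 genes. All samples were MN9D cells, a dopaminergic mouse line that descends from a fusion between midbrain cells of the embryo and a neuroblastoma, and no other treatment is labelled. In 4 arrays the label was overexpression of hemoglobin, by its alpha and its beta chains, and in 3 arrays it was an empty vector. The design text describes the globins as those of the mouse and counts 1 further control array that failed quality assessment and was not analysed here. The labels do not give the promoter that drives the globins, whether each line is 1 clone, or whether replicates are separate cultures, so every p-value here rests on the spread among arrays alone, and that spread may be technical.

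Dopamine is made from tyrosine by tyrosine hydroxylase and aromatic amino acid decarboxylase, and in noradrenergic cells dopamine beta-hydroxylase turns it into noradrenaline inside the vesicle. Tyrosine hydroxylase works only with tetrahydrobiopterin, which is made from GTP by GTP cyclohydrolase, 6-pyruvoyl-tetrahydropterin synthase and sepiapterin reductase, and is restored after each round of hydroxylation by pterin carbinolamine dehydratase and dihydropteridine reductase. Vesicular and plasma membrane transporters store and recapture the amines, and monoamine oxidase starts their breakdown.

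The deposited values were RMA signals on the log2 scale, with array medians between 8.9 and 8.94, and the number of arrays limits their precision. Arrays correlated at 0.9985 to 0.9990 within a group and at 0.9903 to 0.9917 across the groups. The 3 alpha-globin probe sets, which read Hba-a1 and Hba-a2 together, lay between 11.32 and 14.57 in the globin-labelled arrays, against 6.11 to 8.77 in the empty vector arrays. A further probe set of Hba-a1 alone and 1 of Hba-a2 alone did not pass, with differences of 0.03 and -0.03. Of the 3 adult beta-globin probe sets, 1 of Hbb-b2 was higher at a dim signal (6.61 in the globin-labelled and 6.28 in the empty vector arrays, a difference of 0.34, limma adjusted p = 0.00558), and the other 2 differed by 0.12 and -0.05 and did not pass. A large rise was thus seen for alpha-globin and not for beta-globin, on probe sets that need not read the introduced transcripts, so the 4 arrays are named by their label, as globin-labelled. Differences are globin-labelled minus empty vector on the log2 scale, tested with limma across all probe sets, and a probe set passed at a Benjamini-Hochberg adjusted p under 0.05. The value after ± beside a difference is limma's standard error and beside a mean the SD, with n = 4 globin-labelled and n = 3 empty vector arrays throughout.

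The genes did not move as one. Th, Ddc and Qdpr were lower in the globin-labelled arrays, Dbh and Maoa were higher, 1 of the pair of Gch1 probe sets was higher, and Pts, Spr, Slc6a3 and Slc18a1 did not pass. Of the 12 probe sets 7 passed, 3 higher and 4 lower, where 39.5% of all 22626 tested probe sets passed, 18.3% higher and 21.2% lower. The groups did not overlap at the same 7 probe sets, as was so for 43.5% of all probe sets, 20.5% with the globin-labelled arrays higher and 23% with them lower. Only Th and Dbh passed with a fold of at least 1.5, which 5.12% of all probe sets did. The median difference over the 12 probe sets was 0.05, against 0.01 over all probe sets.

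**Figure D1:**
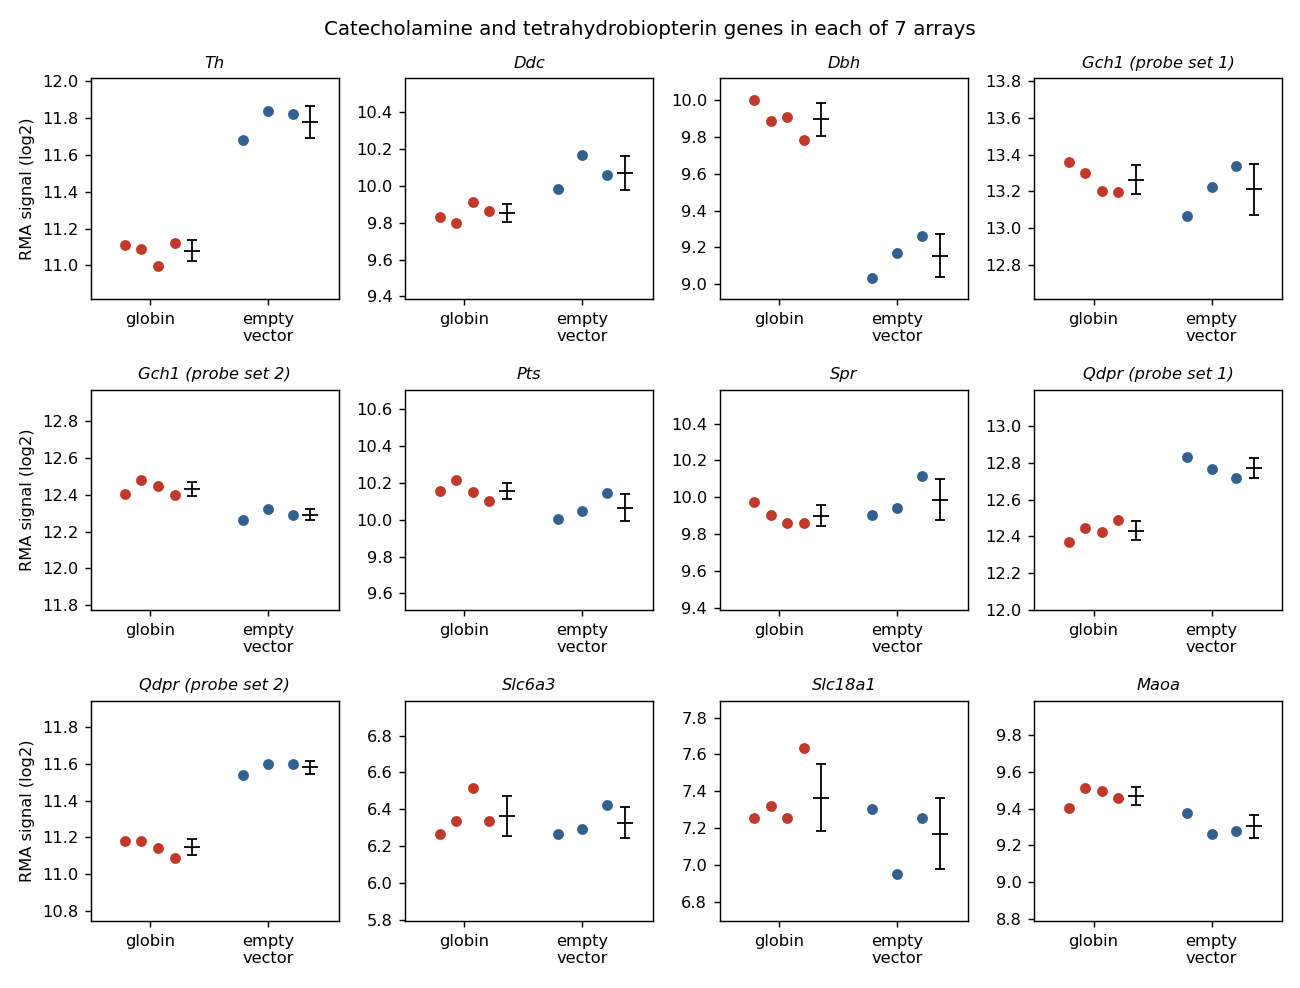
RMA signal (log2) of each of the 12 probe sets in the 4 globin-labelled arrays (red, left) and the 3 empty vector arrays (blue, right), with the group mean and SD in black. Every panel spans 1.2 log2 units, and the gaps between the groups are widest for Th, Dbh and the Qdpr probe sets, while the 5 probe sets that did not pass overlap.

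Th, which encodes the rate-limiting enzyme tyrosine hydroxylase, was lower in the globin-labelled arrays. Its signal was 11.11, 11.09, 10.995 and 11.12 in the globin-labelled arrays, against 11.68, 11.84 and 11.82 in the empty vector arrays. All 4 globin-labelled arrays lay below all 3 empty vector arrays, with a gap of 0.56 between the groups and SDs of 0.06 among the globin-labelled and 0.09 among the empty vector arrays. The difference was -0.70 ± 0.05 (95% confidence interval -0.82 to -0.58, limma adjusted p = 1.14e-05), which is a signal at 61.6% of that with empty vector. Th stood at the 80.2nd percentile of all probe sets in the globin-labelled arrays and at the 87.8th in the empty vector arrays, so it remained among the brighter signals in both.

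Aromatic amino acid decarboxylase, encoded by Ddc, turns the product of tyrosine hydroxylase into dopamine, and also makes serotonin from its precursor. Ddc gave 9.83, 9.80, 9.91 and 9.86 in the globin-labelled arrays, against 9.99, 10.17 and 10.06 in the empty vector arrays. The groups did not overlap, but the gap of 0.07 was no wider than the SD of 0.09 among the empty vector arrays. Ddc fell by 0.22 ± 0.05 (95% confidence interval -0.34 to -0.10, limma adjusted p = 0.00866), a signal at 85.9% of that with empty vector.

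Dbh, which encodes dopamine beta-hydroxylase, marks the noradrenergic branch of the pathway, and it moved opposite to Th. Its signal was 10.003, 9.89, 9.91 and 9.78 in the globin-labelled arrays, against 9.03, 9.17 and 9.26 in the empty vector arrays. The groups were 0.52 apart at their nearest arrays, and the spread was wider than for Th, with SDs of 0.09 among the globin-labelled and 0.12 among the empty vector arrays. Dbh rose by 0.74 ± 0.07 (95% confidence interval 0.59 to 0.89, limma adjusted p = 3.27e-05), or 1.67-fold. Its place among all probe sets was the 62.9th percentile in the globin-labelled arrays and the 52.7th in the empty vector arrays. Probe sets differ in how brightly they bind, so the levels of Th, Ddc and Dbh cannot be set against each other as amounts of RNA.

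The sequences just upstream of Th and Dbh, the pair with the widest and opposite differences, and of Qdpr, whose 2 probe sets both fell, are shown for reference from RefSeq (GRCm38.p6). Each runs 5′ to 3′ on the gene's own strand from 250 bases before to 50 bases after the annotated start. Capitals mark the matches of 5 motifs searched on both strands.
Th, chr7:142899946-142900245, minus strand: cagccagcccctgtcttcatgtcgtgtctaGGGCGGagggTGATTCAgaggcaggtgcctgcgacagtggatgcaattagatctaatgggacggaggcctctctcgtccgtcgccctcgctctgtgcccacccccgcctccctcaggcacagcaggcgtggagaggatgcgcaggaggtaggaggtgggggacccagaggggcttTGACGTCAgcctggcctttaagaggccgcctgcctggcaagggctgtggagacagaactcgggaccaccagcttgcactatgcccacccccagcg
Dbh, chr2:27165257-27165556, plus strand: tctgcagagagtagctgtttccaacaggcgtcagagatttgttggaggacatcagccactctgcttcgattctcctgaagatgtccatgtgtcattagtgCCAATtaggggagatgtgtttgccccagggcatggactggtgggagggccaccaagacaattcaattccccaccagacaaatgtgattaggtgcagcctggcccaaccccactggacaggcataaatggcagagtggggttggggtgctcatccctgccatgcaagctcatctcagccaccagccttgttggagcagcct
Qdpr, chr5:45450180-45450479, minus strand: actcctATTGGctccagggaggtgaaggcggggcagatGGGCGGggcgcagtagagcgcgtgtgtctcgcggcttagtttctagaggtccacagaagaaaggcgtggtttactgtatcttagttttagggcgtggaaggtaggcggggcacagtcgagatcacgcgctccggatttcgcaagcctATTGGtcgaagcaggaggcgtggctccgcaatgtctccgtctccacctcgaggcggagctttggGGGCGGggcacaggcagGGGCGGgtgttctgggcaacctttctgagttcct

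The Th window holds TGACGTCA, the letters of the cyclic AMP response element, with its first base 45 bases before the start, and 1.8% of all 32851 promoter windows hold a match. It also holds 1 match of TGANTCA, the letters of the AP-1 motif, at position -210 (7.8% of windows) and 1 of GGGCGG, the GC box, at -220 (35.7% of windows). The Dbh window matches none of these and has 1 CCAAT, at -150 (37.4% of windows). The Qdpr window has 3 matches of GGGCGG, the first at -212, and 2 of CCAAT read on the other strand. TATAAA was found in none of these 3 windows (13.6% of all windows), and CANNTG, the E-box, is left in lower case since 72.3% of windows hold it. Of the 9 members with a window, the Ddc gene has 2 windows, 1 of which holds a TGANTCA match at -129 and a TATAAA match, and the other a CCAAT match. These matches are descriptions of letters and not of binding.

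Among the genes of the cofactor, the recycling enzyme moved and the enzymes of new synthesis mostly did not. Qdpr encodes dihydropteridine reductase, which restores tetrahydrobiopterin after hydroxylation. Its brighter probe set gave 12.37, 12.44, 12.42 and 12.49 in the globin-labelled arrays, against 12.83, 12.77 and 12.72 in the empty vector arrays. The dimmer one gave 11.18, 11.18, 11.14 and 11.09 in the globin-labelled arrays, against 11.54, 11.60 and 11.60 in the empty vector arrays. On both probe sets every globin-labelled array lay below every empty vector array, with gaps of 0.23 and 0.36 and SDs of 0.03 to 0.05 within the groups. Qdpr fell by 0.34 ± 0.05 on the brighter (limma adjusted p = 3.28e-04) and fell by 0.43 ± 0.04 on the dimmer probe set (limma adjusted p = 4.62e-05), which leaves 79.0% and 74.1% of the signal with empty vector.

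GTP cyclohydrolase, encoded by Gch1, catalyses the first and limiting step of tetrahydrobiopterin synthesis. The brighter of its 2 probe sets gave 13.36, 13.30, 13.20 and 13.20 in the globin-labelled arrays, against 13.07, 13.23 and 13.34 in the empty vector arrays. These groups overlapped, and the difference of 0.05 ± 0.07 did not pass (95% confidence interval -0.10 to 0.21, limma adjusted p = 0.580). The dimmer probe set gave 12.40, 12.48, 12.45 and 12.40 in the globin-labelled arrays, against 12.26, 12.33 and 12.29 in the empty vector arrays. Here the groups did not overlap, and the signal rose by 0.14 ± 0.04 (limma adjusted p = 0.0206), a 1.10-fold difference. That call did not hold without empty vector array 1, empty vector array 3, globin-labelled array 2 or globin-labelled array 3, each left out alone (limma adjusted p = 0.0595, 0.0526, 0.0552 and 0.0521). The brighter probe set lay at the 97.3rd percentile in the globin-labelled arrays and at the 97.1st in the empty vector arrays, so both probe sets of Gch1 were among the brightest of the array.

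The remaining genes of tetrahydrobiopterin synthesis did not pass. Pts, for the synthase of the second step, had 10.16, 10.21, 10.15 and 10.10 in the globin-labelled arrays, against 10.002, 10.05 and 10.15 in the empty vector arrays. The highest empty vector array reached the lower part of the globin-labelled arrays, and the difference was 0.09 ± 0.05 (95% confidence interval -0.02 to 0.20, limma adjusted p = 0.169). Spr, for sepiapterin reductase of the final step, had 9.98, 9.91, 9.86 and 9.86 in the globin-labelled arrays, against 9.90, 9.94 and 10.11 in the empty vector arrays. Its difference was -0.09 ± 0.06 (95% confidence interval -0.22 to 0.05, limma adjusted p = 0.280), so a change the size of that of Th lies outside the interval for either gene.

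Both transporters gave dim signals whose groups overlapped. Slc6a3 encodes the dopamine transporter of the plasma membrane and is a defining gene of midbrain dopamine neurons. It gave 6.26, 6.34, 6.52 and 6.34 in the globin-labelled arrays, against 6.27, 6.29 and 6.42 in the empty vector arrays, and the difference was 0.04 ± 0.07 (95% confidence interval -0.11 to 0.19, limma adjusted p = 0.698). Slc18a1 encodes the vesicular monoamine transporter of endocrine and chromaffin cells. It gave 7.25, 7.32, 7.25 and 7.64 in the globin-labelled arrays, against 7.30, 6.95 and 7.25 in the empty vector arrays. Its difference of 0.20 ± 0.11 did not pass (95% confidence interval -0.05 to 0.45, limma adjusted p = 0.196), and its SDs of 0.18 in the globin-labelled and 0.19 in the empty vector arrays were the widest of the 12 probe sets. Globin-labelled array 4 was the highest and empty vector array 2 the lowest, and 3 arrays had the identical value of 7.25.

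RMA gives no detection call, so dim signal was set against 11 measured genes of liver, muscle, lung, breast, kidney and testis whose known expression is in those tissues. Their means lay between 4.24 and 8.33 in the globin-labelled arrays and between 4.04 and 8.31 in the empty vector arrays. The signals of Slc6a3 and Slc18a1 fall inside that range in both groups, at percentiles of 19.5 and 31.6 in the globin-labelled and 19.3 and 29.6 in the empty vector arrays. Whether either transcript was present cannot be told from these values. Ddc, Dbh, Th, Maoa and the cofactor genes lay above it.

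Maoa encodes monoamine oxidase A, the mitochondrial enzyme that deaminates noradrenaline, serotonin and dopamine. It gave 9.40, 9.51, 9.496 and 9.46 in the globin-labelled arrays, against 9.37, 9.26 and 9.28 in the empty vector arrays. The groups were only 0.03 apart at their nearest arrays. Maoa rose by 0.16 ± 0.05 (95% confidence interval 0.06 to 0.27, limma adjusted p = 0.0187), a 1.12-fold difference. It did not pass without empty vector array 2, empty vector array 3 or globin-labelled array 2 (limma adjusted p = 0.0697, 0.0612 and 0.0514).

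**Figure D2:**
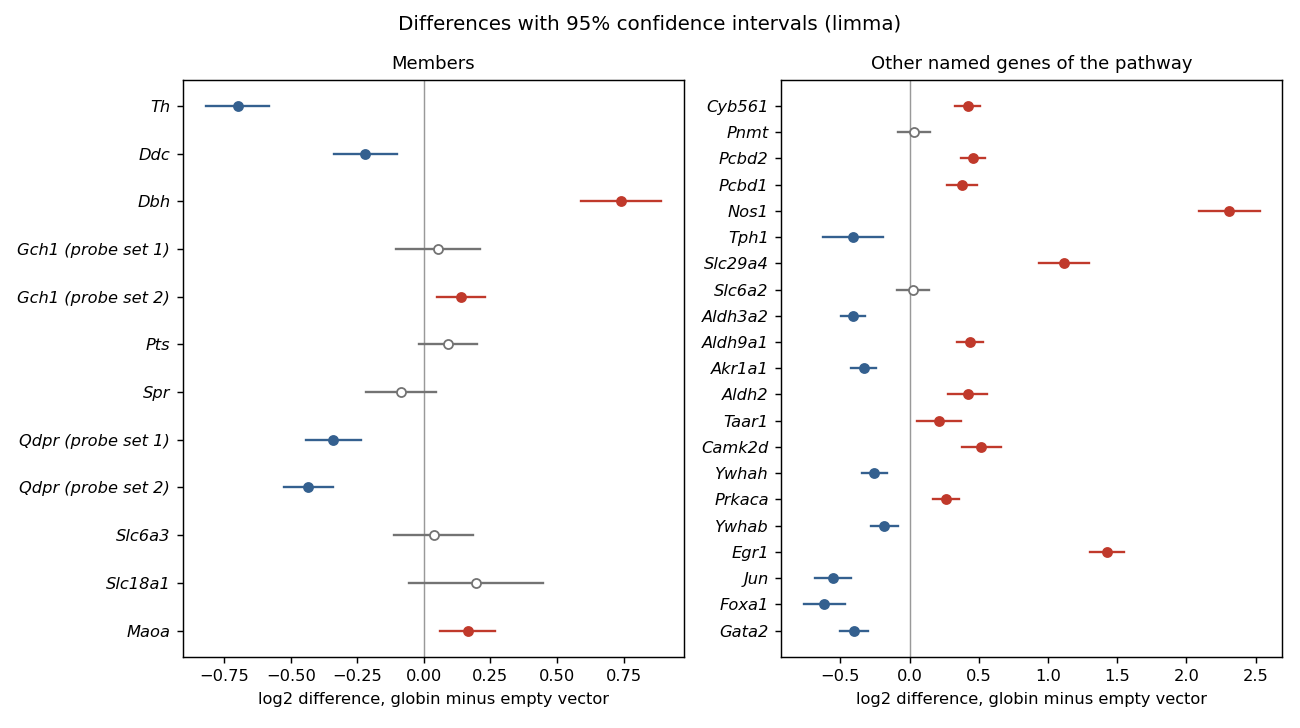
Log2 differences, globin-labelled minus empty vector, with limma's 95% confidence intervals, for the 12 probe sets of the 10 genes (left) and for the other named genes of the pathway (right; the horizontal scales differ). Red and blue points passed as higher and lower, and open points did not pass. Th and Dbh lie farthest from 0 on the left at -0.70 and 0.74, and Nos1 on the right at 2.31.

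Against the whole array the differences of most members were modest. The median size among the 7 members that passed was 0.34, close to the 0.30 among all probe sets that passed. Within-group SDs of the 12 probe sets ran from 0.04 to 0.18 in the globin-labelled and from 0.03 to 0.19 in the empty vector arrays.

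**Figure D3:**
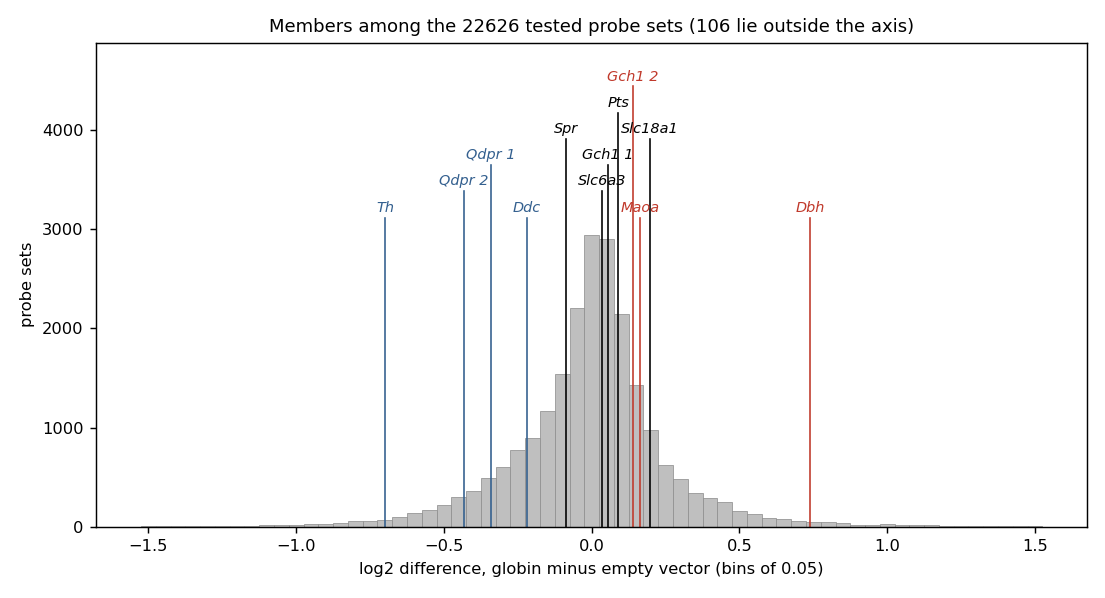
Histogram of the log2 differences of all 22626 tested probe sets in bins of 0.05, with the 12 probe sets marked by lines (blue lower, red higher, black did not pass; Gch1 1 and Qdpr 1 are the brighter of each gene's pair, and 106 probe sets lie outside the axis). Dbh at 0.74 and Th at -0.70 lie in the thin tails, and the probe sets of Spr, Slc6a3, Pts and Gch1 lie in the central peak.

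The other genes of the pathway were counted once per gene, on its probe set of highest mean. Of 68 measured genes, 16 rose and 12 fell, where 40.7% of all 12393 genes passed, 20.6% higher and 20.1% lower. Their median difference was 0.04, against 0.02 over all genes. These counts are near those of all genes.

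Cyb561, which carries electrons from ascorbate across the vesicle membrane for dopamine beta-hydroxylase, rose by 0.42 ± 0.04 (limma adjusted p = 3.91e-05). Pnmt, which turns noradrenaline into adrenaline, did not pass on any of its 3 probe sets (0.02 to 0.03), so of the 2 measured genes of that list 1 rose and 0 fell. Of 3 further biopterin genes 2 rose and 0 fell, and Cbr1, a carbonyl reductase, did not pass (-0.05 ± 0.04).

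Pcbd1 and Pcbd2 encode the pterin carbinolamine dehydratases, which act just before dihydropteridine reductase in the recycling of tetrahydrobiopterin. Pcbd1 gave 11.32, 11.27, 11.45 and 11.38 in the globin-labelled arrays, against 10.97, 10.99 and 10.97 in the empty vector arrays, a rise of 0.38 ± 0.05 (limma adjusted p = 2.45e-04). Pcbd2 gave 11.05, 10.97, 11.02 and 10.99 in the globin-labelled arrays, against 10.55, 10.56 and 10.53 in the empty vector arrays, a rise of 0.46 ± 0.04 (limma adjusted p = 2.12e-05). For both genes all globin-labelled arrays lay above all empty vector arrays, while Qdpr was lower, so the genes of the recycling moved in both directions. Both dehydratases are also known as cofactors of the transcription factor HNF1.

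Of 4 measured genes for enzymes that also use tetrahydrobiopterin, 1 rose and 1 fell. Nos1, the neuronal nitric oxide synthase, gave 11.61, 11.43, 11.59 and 11.54 in the globin-labelled arrays, against 8.98, 9.45 and 9.26 in the empty vector arrays, a rise of 2.31 ± 0.10, or 4.96-fold (limma adjusted p = 3.23e-07). Its groups were far apart, and its other probe set also rose, by 1.45 ± 0.07. Tph1, a tryptophan hydroxylase of serotonin synthesis, fell by 0.41 ± 0.10 (limma adjusted p = 0.00777) at a dim signal of 6.46 in the globin-labelled and 6.87 in the empty vector arrays, and did not pass without variance moderation (limma adjusted p = 0.0573). Nos2 and Nos3 did not pass (-0.05 ± 0.07 and -0.10 ± 0.05).

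Among 4 measured amine transporters 1 rose and 0 fell. Slc29a4, the plasma membrane monoamine transporter of low affinity and high capacity, gave 10.49, 10.25, 10.39 and 10.31 in the globin-labelled arrays, against 9.06, 9.36 and 9.31 in the empty vector arrays. It rose by 1.12 ± 0.08, or 2.17-fold (limma adjusted p = 8.14e-06), with the groups far apart. Slc6a2, the noradrenaline transporter, did not pass (0.02 ± 0.05) and was dim at 6.69 in the globin-labelled and 6.67 in the empty vector arrays.

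Of 9 measured genes of amine breakdown beyond Maoa, 3 rose and 2 fell. Aldehyde dehydrogenases remove the aldehydes that monoamine oxidase leaves, and their genes moved both ways. Aldh9a1 rose by 0.44 ± 0.04 and Aldh2, which acts in mitochondria, by 0.42 ± 0.06 (limma adjusted p = 4.52e-05 and 5.80e-04). The other 2 probe sets of Aldh2 did not pass (-0.08 ± 0.14 and 0.04 ± 0.08), and Aldh1b1 rose by 0.39 ± 0.07. Aldh3a2, the microsomal fatty aldehyde dehydrogenase, fell by 0.41 ± 0.04 (limma adjusted p = 4.04e-05). Akr1a1, an aldehyde reductase, was lower on all 4 of its probe sets, by differences of -0.40 to -0.31.

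Of 15 listed catecholamine receptor genes, 9 were not analysed here. The means of all 6 measured ones lay inside the range of the genes of other tissues. A lack of change therefore cannot be told from a lack of readable signal. Of 6 measured receptor genes 1 rose and 0 fell: Taar1, the trace amine receptor, by 0.21 ± 0.07 (limma adjusted p = 0.0363), at a dim 6.16 in the globin-labelled and 5.95 in the empty vector arrays that overlapped. It did not pass without globin-labelled array 1, 2, 3 or 4 or without empty vector array 1 or 2, with adjusted p-values of 0.0537 to 0.134. The dopamine receptor gene Drd2 did not pass (-0.07 ± 0.05) and was dim, at 7.02 in the globin-labelled and 7.09 in the empty vector arrays.

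Tyrosine hydroxylase is switched by phosphorylation and held active by 14-3-3 proteins. Of 17 measured kinase, phosphatase and 14-3-3 genes 3 rose, 2 fell and 12 did not pass. Camk2d and Prkaca, kinase subunits of the calcium and cyclic AMP pathways, rose by 0.52 ± 0.06 and 0.26 ± 0.04 (limma adjusted p = 1.79e-04 and 9.21e-04). The 14-3-3 genes Ywhah and Ywhab fell by 0.25 ± 0.04 and fell by 0.18 ± 0.04 (limma adjusted p = 8.33e-04 and 0.00890), the second on 5 of its 6 probe sets. Probe sets of other 14-3-3 genes were divided. Ywhaz did not pass on its brightest probe set (0.06 ± 0.04) but was higher on 4 of its 7, at 0.14 to 0.22, and Ywhag was lower on 2 of its 3. Both were named after their values were seen. Phosphorylation itself was not measured.

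Of 23 measured genes listed as transcription factors of Th and Dbh, 4 rose and 7 fell. Egr1, an immediate early factor, rose by 1.43 ± 0.05 (limma adjusted p = 1.67e-07). Jun, a component of AP-1, fell by 0.55 ± 0.06 (limma adjusted p = 7.64e-05), with its other probe set at -0.58. Fos, also a component of AP-1, went the other way and rose by 0.37 ± 0.11 (limma adjusted p = 0.0244). Creb1 was lower on 3 of its 4 probe sets, with -0.23 ± 0.07 on the brightest (limma adjusted p = 0.0312). Foxa1 fell by 0.61 ± 0.07 and Gata2 fell by 0.40 ± 0.04 (limma adjusted p = 8.35e-05 and 1.10e-04). Phox2a, the homeodomain factor of noradrenergic cells, rose by 0.16 ± 0.05 (limma adjusted p = 0.0420), and was chosen for mention among these factors after its value was seen. Its call lay near the threshold, and the gap of 0.04 between the groups was narrower than the SD of 0.11 among the empty vector arrays.

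The label of a dopaminergic line was checked against 5 measured defining genes. Of these, Th, Ddc and Slc6a3 are also members, as is Dbh of the noradrenergic list below, so the check is not separate from the members. Th was bright and fell. Ddc also fell, and stood at the 62.3rd percentile in the globin-labelled and at the 65.0th in the empty vector arrays. Slc6a3, Nr4a2 and Pitx3 lay inside the range of the genes of other tissues. Their means were 6.36, 8.04 and 7.25 in the globin-labelled and 6.33, 8.17 and 7.19 in the empty vector arrays. These 3 did not pass, but the dimmer probe set of Nr4a2 was lower by 0.28 ± 0.06 (limma adjusted p = 0.00393). It lay inside that range too, at 7.46 in the globin-labelled and 7.74 in the empty vector arrays. Of 5 noradrenergic or sympathetic markers 2 rose (Dbh and Phox2a) and 1 fell (Gata3), and Phox2a and Hand2 were bright, at 12.38 and 11.74 in the globin-labelled and 12.22 and 11.83 in the empty vector arrays. Gata3 was at 8.01 in the globin-labelled and 8.36 in the empty vector arrays, and Slc6a2 at 6.69 in the globin-labelled and 6.67 in the empty vector arrays, so the markers of either list spanned bright and dim signals. Slc17a6, the 1 measured glutamate marker, was also bright and did not pass (11.29 in the globin-labelled and 11.17 in the empty vector arrays). Of the remaining lists, 0 of 4 astrocyte, 0 of 3 oligodendrocyte, 0 of 4 fibroblast and 0 of 1 serotonergic markers passed in limma, 1 of 2 cholinergic markers was higher (Slc18a3), and 1 of 3 GABA markers (Gad2) and 1 of 4 microglial or macrophage markers (Cd68) were lower. The log2 of the summed level of the dopaminergic list, which Th leads, ran from 11.77 to 11.84 in the globin-labelled and from 12.22 to 12.38 in the empty vector arrays. That of the noradrenergic list ran from 13.24 to 13.34 in the globin-labelled and from 13.05 to 13.31 in the empty vector arrays, and so overlapped. For the GABA list it was 8.99 to 9.13 in the globin-labelled and 9.32 to 9.46 in the empty vector arrays, and for the microglial list 8.5 to 8.75 in the globin-labelled and 9.01 to 9.10 in the empty vector arrays. Only Gad2 and Cd68 passed in these lists (-0.85 and -1.25), so neither sum shows a fall of its list as a whole. The means of all 4 microglial markers lay inside the range of the genes of other tissues. The lower dopaminergic sum contains the falls of Th and Ddc themselves. The part of these markers in the differences of the pathway genes was not tested, and lists that hold members could not test it. Dim brightness of a single probe set does not show that a gene is absent, and in bulk RNA fewer cells of a type and less RNA per cell cannot be told apart.

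The position of the members on the chromosomes was not used to choose them. The 10 genes lie on 10 chromosomes, and the 10 nearest measured genes on either side were taken in gene order. The 20 neighbours of Th had a median difference of 0.07, with 6 higher and 2 lower, so the fall of Th was not shared by its stretch. Its nearest measured neighbours, Ins2 and Ascl2, differed by 0.12 and 0.28. The neighbours of Dbh had a median of 0.08, with 7 higher and 2 lower, and the nearest, Mymk and Sardh, differed by 0.19 and 0.17, each well short of the 0.74 of Dbh. Ddc stands beside Grb10, an imprinted adaptor gene, which rose by 1.51, and Fignl1 on its other side rose by 0.31, both opposite to Ddc. Its 20 neighbours went both ways, with a median of 0.05, 5 higher (0.17 to 1.51) and 4 lower (-0.67 to -0.20). Both nearest neighbours of Qdpr, Ldb2 and Lap3, fell, with differences of -0.22 and -0.31, but the median of its 20 neighbours was 0.02, with 3 higher and 6 lower. For all 10 members the neighbours' median lay between -0.02 and 0.08.

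**Figure D4:**
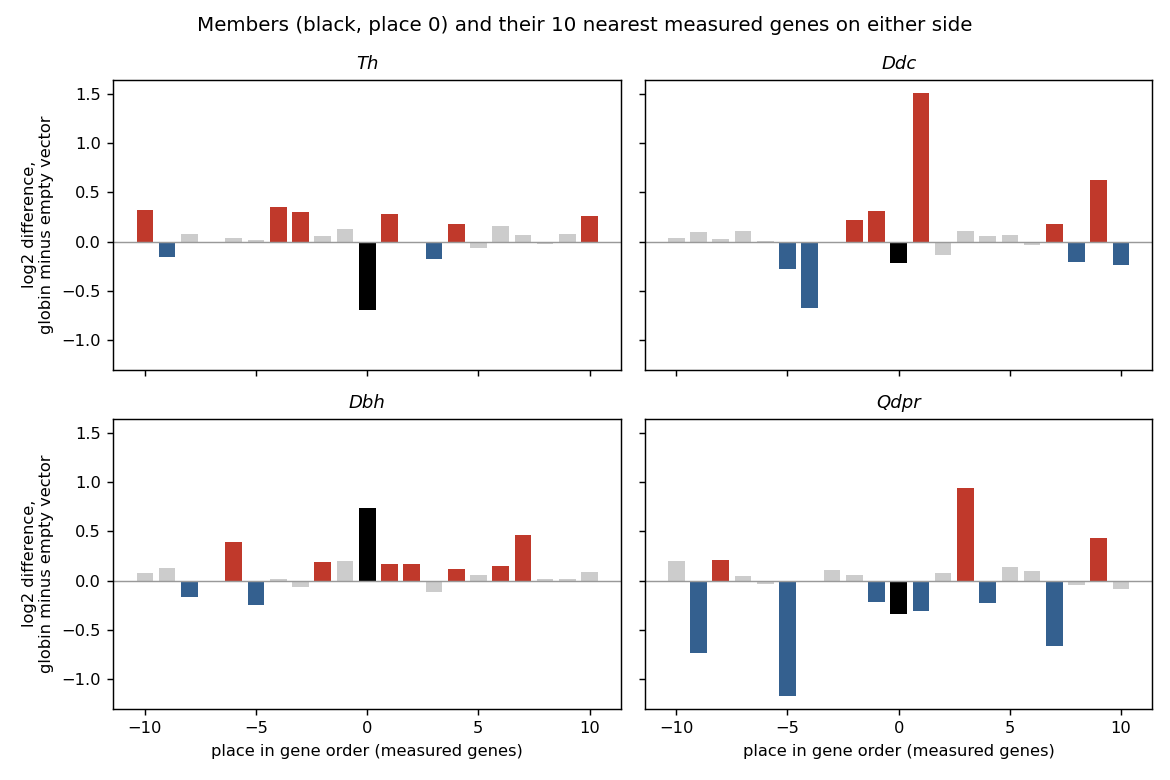
Log2 differences, globin-labelled minus empty vector, of Th, Ddc, Dbh and Qdpr (black, place 0) and of the 10 nearest measured genes on either side in gene order (red passed as higher, blue as lower, grey did not pass). Th at -0.70 is the lowest bar of its stretch, whose neighbours have a median of 0.07, and Dbh at 0.74 is the tallest bar of its stretch.

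Likeness to Th and Dbh was measured as Pearson's correlation over the 7 arrays, which mostly reads the difference between the groups, and is given as a description. The genes most like Th were Pros1 (0.998), Sox4 (0.997) and Ubap2 (0.997), with differences of -0.82, -0.63 and -0.34. Those most like Dbh were Stra6, Ninj1 and Steap1 (each 0.999), with differences of 0.88, 0.82 and 0.80. Of 20368 probe sets outside the members, 1215 correlated with Th at over 0.95 and 1294 with Dbh, so a correlation over 0.95 was common. The genes named are the highest of these, and how many came near their values was not counted.

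Other fits moved the size of the larger differences little. Over 15 alternatives Th ranged from -0.76 to -0.67 and Dbh from 0.68 to 0.79, and both probe sets of Qdpr stayed below -0.31. The dimmer Gch1 probe set and Maoa each lost their call in some fits with arrays left out, and these as well as Ddc and both Qdpr probe sets fell short of a minimum fold of 1.5.

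**Figure D5:**
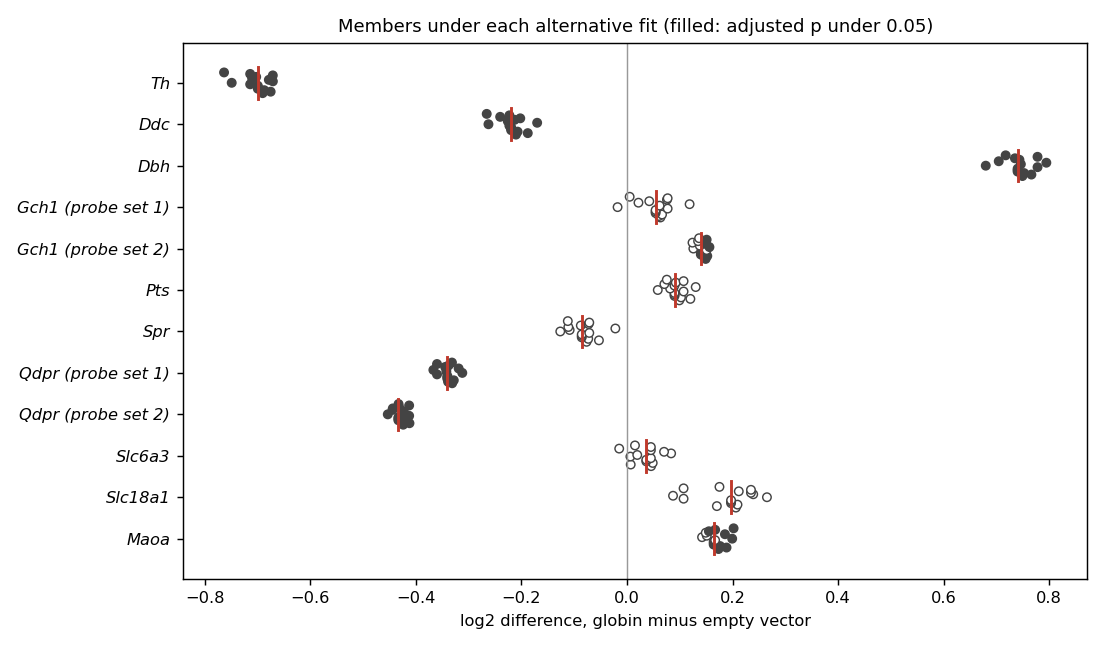
Log2 difference of each of the 12 probe sets in the reported fit (red bar) and under each alternative fit (points, filled where the adjusted p is under 0.05). Points of Th, Ddc, Dbh and Qdpr are all filled, while those of the dimmer Gch1 probe set and of Maoa are mixed.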

How the data were processed

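Total RNA of 7 MN9D samples was labelled with biotin in one amplification cycle and hybridised to Affymetrix mouse 430A 2.0 arrays, per the labels' protocols and the design text. The authors deposited log2 values. The submitters' processing notes name RMA, with its version not given in the sources used here. This method gives the arrays nearly the same distribution, so these values cannot show a general change of RNA amount, and it shrinks large folds. These log2 values were used as deposited, with 64 control probe sets set aside. The platform annotation gave 1 symbol for 20380 of the 22626 tested probe sets, several for 691 and none for 1555, and 0 symbols needed updating through RefSeq (GRCm38.p6). Genes were named only from probe sets with 1 symbol, globins excepted.

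All tested probe sets were fitted together in limma (version 3.58.1, R 4.3.3) by lmFit and eBayes with 1 term for group. Tests were two-sided with 9.1 total degrees of freedom, and results were summarised in Python 3.11.15. The fit was tested on simulated data. The members, lists, tests and alternatives were chosen with earlier results of these data known. Named were all member probe sets, up to 4 passing genes of each list by smallest p, and the 3 genes most like Th and Dbh. Pnmt, Slc6a2, Pcbd1 and Nos1 were named whatever their result. The brightest marker was named for the dopaminergic, noradrenergic, cholinergic and glutamate lists, and not for the remaining marker lists. Cbr1, Nos2, Nos3, Drd2, Aldh1b1, Fos, Creb1, the nearest neighbours and the other named markers were named after their values were seen. Of 92 other listed pathway genes, 24 were not analysed here. Promoter windows were found for 9 of the 10 members.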

Additional observations from a re-analysis of the deposited data

Results flagged for a closer look

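In 4 of the 33 probe sets examined, 1 globin-labelled array lay far from the other 3 for the width of the group, where chance gives about 1 in 20. Globin-labelled array 4 was the high one for Cyb561 (11.57, others 11.53), for Taar1 (6.27, others 6.11 to 6.13) and for Gata2 (11.73, others 11.60 to 11.61). Globin-labelled array 1 was the low one for Camk2d (10.84, others 11.05 to 11.07). None of the 12 member probe sets was among them, and the nearest was Slc18a1, through its 7.64 in globin-labelled array 4.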

How the results depend on the processing

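The alternatives changed the array scaling, the variance moderation, the filter on dim probe sets, the minimum fold, the replicate block and the arrays included. Among the values of member probe sets under alternatives, 167 kept their direction and their side of the threshold, 15 were no longer called and 2 changed sign. Th, Ddc, Dbh and both Qdpr probe sets passed under every alternative except, for Ddc and Qdpr, the minimum fold. The margin was narrow for Ddc, at a limma adjusted p of 0.0491 with the replicate block. Without empty vector array 2 its difference was -0.17 (limma adjusted p = 0.0318). Requiring a fold of at least 1.5 left 2 member probe sets, 1 higher and 1 lower, 4 of the other pathway genes (3 higher, 1 lower), and 1159 of all probe sets (563 higher, 596 lower). Leaving out 1 array at a time gave 1 to 3 higher member probe sets, with 1 without empty vector array 3 and 1 without globin-labelled array 2, and 5 to 7 in all, against 7 reported. Replicate numbers are shared by the groups, but the deviations of same-numbered arrays correlated at -0.364, -0.299 and -0.145, so the numbers were not taken as pairs. With the replicate block, which leaves out globin-labelled array 4, 5 member probe sets passed, 1 higher and 4 lower, as Maoa (0.17, limma adjusted p = 0.112) and the dimmer Gch1 probe set (0.15, limma adjusted p = 0.0887) did not. With the first empty vector and the fourth globin-labelled array both left out, 6 member probe sets passed. The sign turned for the brighter Gch1 probe set without empty vector array 1 (-0.018), for Slc6a3 without globin-labelled array 3 (-0.015), for Pnmt without empty vector array 2 (-0.019), and for Slc6a2 under quantile normalization (-0.0052) and without empty vector array 2 (-0.024), none of which had passed, and the cause was not tested. Leaving out 1 array at a time, these 4 reached at most 0.119, 0.084, 0.062 and 0.064, each without empty vector array 3. Array scaling moved the median of all probe sets to between 0.0016 and 0.021, from 0.0089. Signal over background could not be measured, which limits the dim transporters.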

Other observations

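Empty vector array 1 had the lowest signal of the 3 empty vector arrays at 9 of the 12 member probe sets, against 37.9% of all probe sets. Without it the differences of Th and Dbh were -0.75 and 0.68. Identical values in 2 or more arrays, as seen for Slc18a1 and Slc6a3, occurred at 36.3% of all probe sets.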
